A study of Mus musculus with 9 samples.

Results

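The genes described here are the potassium channel genes and the hyperpolarization-activated (HCN) channel genes of mouse retinal ganglion cells (RGCs), the neurons whose axons form the optic nerve. Every gene whose symbol starts with Kcn and a letter, or with Hcn and a digit, was taken, which gave 101 of 23997 gene symbols. The rule used names and no measured value, but it was chosen with earlier results of these data known. RGCs were isolated by immunopanning, an antibody capture on coated plates that ends on Thy1.2, from C57BL/6J mice aged 8 weeks according to the labels. Control eyes had received saline in the anterior chamber, whereas Mild IOP and Moderate IOP eyes had received microbeads, which raise intraocular pressure (IOP), and all cells were collected 2 weeks after injection. Microbead eyes were not assigned to Mild IOP or Moderate IOP but were sorted afterwards by their measured rise in pressure. The Moderate IOP group held fewer retinas than each of the other groups. Per the study's methods, each injection, saline included, was followed by sodium hyaluronate, and actinomycin D, which blocks transcription, was kept in the isolation buffers of all 3 groups. Within a group all RNA went into 1 pool, from which 3 technical replicates were drawn, so the groups are compared as pools, and p-values measure the spread between libraries of 1 pool and not between animals.

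Potassium channels let potassium leave the cell, which sets the resting potential, ends the action potential and paces repetitive firing. Their pores belong to voltage-gated (Kv), calcium-activated, inward-rectifying (Kir) and tandem-pore (K2P) families, and auxiliary subunits such as Kv-beta proteins and KChIPs change their gating and traffic. HCN channels pass a mixed cation current on hyperpolarization, and in retinal neurons they shape how responses recover and how fast inputs are filtered.

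The values are FPKM, fragments per kilobase of transcript relative to all mapped fragments of the library, divided by 1 scaling factor per library. Because FPKM are per length, levels can be set side by side between genes. The depth derived from the FPKM confidence intervals lay between 4370000 and 7810000 fragments per library, and between 14550 and 29927 derived fragments per library fell on the channel genes. Of the 101 genes, 66 were above 0 in every library, 9 were listed at 0 in all of them and 30 others stayed under the filter of a mean of 0.5 scaled FPKM. The remaining 62 genes were tested, among 13043 genes in all. In Mild IOP replicate 2 a single microRNA gene held 20.5% of all FPKM, and in Moderate IOP replicate 3 the highest gene held 9.14%, against at most 3.59% in the other 7 libraries. The calls, non-overlap counts and summed level of the channel genes are therefore also given without Mild IOP replicate 2. Without it, the number of all genes called between Moderate IOP and Mild IOP fell from 1324 to 518.

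The RGC label was checked against 8 markers, of which all were expressed in every group. Their sum was 1724 ± 67.8 scaled FPKM in Control, 1432 ± 170.4 in Mild IOP, with 2643 ± 106 in Moderate IOP (SD, n = 3). Sncg was the most abundant, at a mean of 980 over the 9 libraries, followed by Nefl at 418. The panning included a negative step against an amacrine cell antigen. Amacrine markers summed to 728 ± 17.0 scaled FPKM in Control, 799 ± 32.2 in Mild IOP, with 534 ± 20.4 in Moderate IOP, led by Gad1, which makes GABA, at a mean of 519 scaled FPKM. That mean was above those of all RGC markers but Sncg. Rod and cone markers summed to 488 ± 44.6 in Control, 314 ± 19.7 in Mild IOP, with 313 ± 26.7 in Moderate IOP, led by Sag. The 3 lens crystallins summed to 248 ± 33.4 in Control, 0.684 ± 0.449 in Mild IOP, with 0 in Moderate IOP. Müller glia markers summed to 38.7 ± 3.01 in Control, 40.0 ± 5.87 in Mild IOP, with 65.4 ± 16.2 in Moderate IOP, led by Glul, which was higher in Moderate IOP than in Mild IOP (log2 difference 0.96, FDR 0.012, limma). Of the other Müller glia markers, Slc1a3 was lower in that comparison without overlap (log2 difference -0.35, FDR 0.41), and Aqp4 (0.17, FDR 0.76) and Rlbp1 (0.19, FDR 0.78, limma) overlapped. Sox9, below the filter and so not tested, was higher there without overlap, with means of 0.667 in Moderate IOP and 0.233 in Mild IOP. The 3 pigment epithelium markers summed to 4.86, 13.9 and 15.8 in these groups, led by Rlbp1, which Müller glia share and which was higher in Moderate IOP than in Control (log2 difference 1.43, FDR 0.068, limma), while Rpe65 was listed at 0 in every library. Endothelium and pericyte markers summed to 1.85, 5.81 and 4.11, led by Rgs5, with Cldn5 at 0 in every library, and horizontal cell markers to 20.0, 23.2 and 30.1, led by Calb1 at a mean of 23.5, with Lhx1 at 0. Bipolar markers summed to 22.1, 29.2 and 26.3, astrocyte markers to 2.18, 1.09 and 3.89, and microglia markers to 3.34, 4.78 and 3.17. Of the amacrine markers, the glycine transporter gene Slc6a9 fell by 1.48 on the log2 scale in Moderate IOP against Control (FDR 0.00062, limma with Benjamini-Hochberg adjustment), and Gad1 was lower without overlap but did not pass (log2 difference -0.38, FDR 0.11), whereas Tfap2b differed by 0.06 (FDR 0.89) and Slc32a1 by 0.29 (FDR 0.66). In bulk RNA, fewer cells of a type and less RNA per cell cannot be told apart.

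The libraries, which also held markers of other cell types, were rich in auxiliary subunits. The cell source of the channel transcripts was not tested. The KChIPs, calcium-binding partners of Kv4 pores, held 38.9% of the summed FPKM of the channel genes, and the Kv-beta genes, partners of Kv1 pores, held 15.5%. The 3 highest genes held 37.4% and the 10 highest 66.2% of the sum. Kcnip1, which encodes KChIP1, was the highest. Its scaled FPKM was 262, 303 and 310.1 in the Control libraries, 263, 248 and 301 in Mild IOP, with 275, 205 and 189 in Moderate IOP, so the groups overlapped (log2 difference -0.40 ± 0.15 SE in Moderate IOP against Control, FDR 0.24, limma). The Kv4 pores themselves were far lower, with a mean over the 9 libraries of 15.6 scaled FPKM for Kcnd3.

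**Figure D1:**
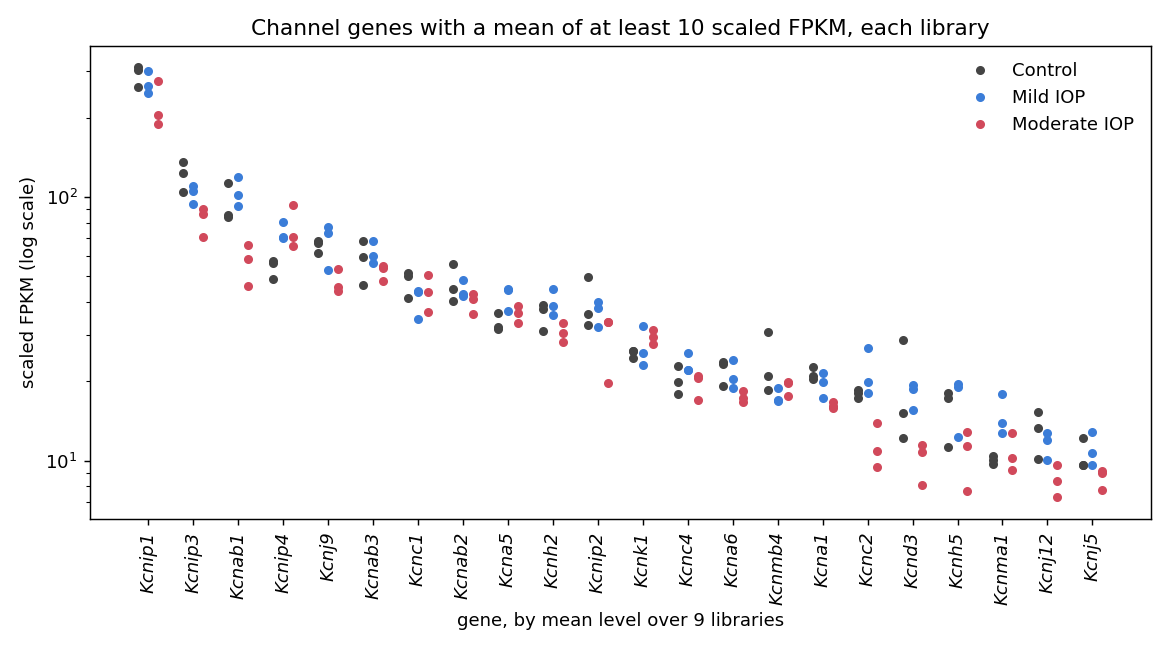
Scaled FPKM (log scale) of 22 channel genes with a mean of at least 10, ordered by their mean over the 9 libraries, with each point 1 library and the colour its group. Kcnip1 lies above all other genes at 189 to 310.1 scaled FPKM, and the Moderate IOP points of Kcnab1 and Kcnc2 lie below all their Control and Mild IOP points.

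After the KChIPs and Kv-beta genes, the pore genes that led their families were Kcnc1, a fast Kv3 pore, with group means of 47.7, 40.7 and 43.7 scaled FPKM in Control, Mild IOP and Moderate IOP, and the G-protein-gated Kir pore gene Kcnj9. Kcna5 (Kv1.5), with means of 33.4, 42.1 and 36.1, and Kcnh2, an Erg pore, with 35.9, 39.7 and 30.7, followed. Kcnk1 led the K2P pores at 25.6, 27.0 and 29.5, and Kcnmb4, the neuronal beta subunit of BK channels, led the calcium-activated family at 23.4, 17.6 and 19.1. The Kv7 pores Kcnq3 and Kcnq5 were among the 39 genes below the filter.

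Replicates of these genes were close where levels were high. The median coefficient of variation between replicates was 11.9% for genes with a mean of at least 10 scaled FPKM and 32.8% for tested genes below that level. In the sum over all 101 genes, Moderate IOP lay below every other library. The summed scaled FPKM was 1276 ± 14.96 in Control, 1280.0 ± 62.9 in Mild IOP, with 1046 ± 22.9 in Moderate IOP (SD, n = 3), and the Mild IOP mean was 1243 without replicate 2. The Kv4 and KChIP family was 530 ± 11.6 in Control and 424 ± 29.0 in Moderate IOP, the Kv1 and Kv-beta family was 298 ± 9.23 and 241 ± 14.8, and the Kir family 117 ± 5.22 and 85.0 ± 3.90. In contrast, the K2P sum was 41.5 ± 3.05 in Control and 49.3 ± 3.42 in Moderate IOP. These sums are descriptions and carry no test.

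**Figure D2:**
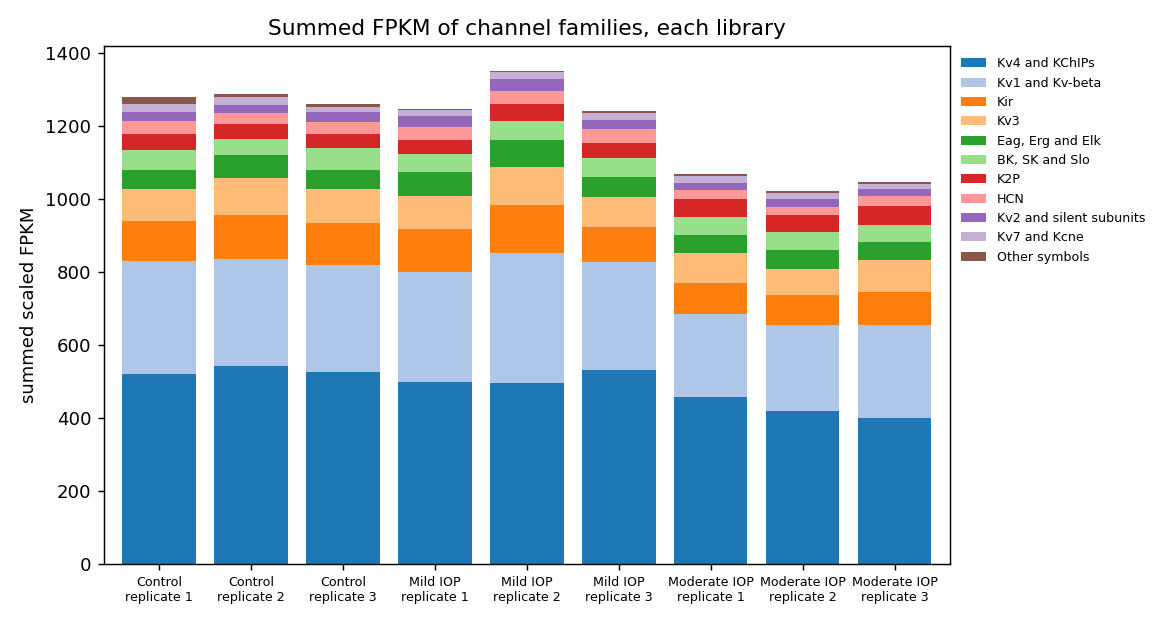
Summed scaled FPKM of the channel genes in each of the 9 libraries, stacked by family. The 3 Moderate IOP bars reach 1023 to 1069 and the 6 others 1241 to 1352, with the largest blocks in all libraries being Kv4 with KChIPs and Kv1 with Kv-beta.

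The first question was which channel genes differed from Control after Mild IOP elevation. None of the 62 tested genes passed an FDR of 0.1 in limma, in either direction, beside 0.00767% of all tested genes called higher and 0.391% called lower. At an unadjusted p below 0.05, 6 channel genes were higher (3.15% of all genes) and 1 was lower (7.0% of all genes). The 3 Mild IOP libraries lay above all 3 Control libraries for 5 channel genes (7.94% of all genes) and below them for 1 (9.13% of all genes). As shares of the 62 channel genes, 9.68% were higher by the unadjusted p and 8.06% by overlap, and 1.61% were lower by either measure. Without Mild IOP replicate 2, 7 channel genes lay above Control and 5 below it without overlap, beside 11.9% of all genes in each direction. With all libraries, the 62 channel genes had a median log2 difference of 0.08, beside 0.01 for all tested genes, with 38 of 62 above 0. The channel gene median was 0.009 without Mild IOP replicate 2, 0.025 without Mild IOP replicate 1 and 0.15 with upper-quartile scaling.

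The 5 genes higher in all Mild IOP libraries were Kcnip4, Kcna5, Kcnb2, Kcnma1 and Kcns2. Kcnip4, which encodes KChIP4, measured 57.1, 49.0 and 56.1 scaled FPKM in Control, 70.3, 80.3 and 69.9 in Mild IOP, with 65.3, 93.5 and 70.6 in Moderate IOP. It was the KChIP gene whose libraries in both IOP groups lay above all Control libraries, without passing the test (log2 difference 0.44 ± 0.15 SE, FDR 0.32 in Mild IOP, and 0.48 ± 0.15, FDR 0.17 in Moderate IOP, limma). Kcnma1, the pore of the BK channel, measured 10.1, 9.70 and 10.4 in Control and 12.8, 13.9 and 18.0 in Mild IOP (log2 difference 0.51 ± 0.19, FDR 0.36, limma). The Kv2 pore gene Kcnb2 measured 2.58, 2.83 and 2.75 in Control and 4.85, 5.00 and 3.33 in Mild IOP (log2 difference 0.52 ± 0.23, FDR 0.48, limma). In Moderate IOP the Kcnma1 and Kcnb2 libraries overlapped Control.

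Kcnmb4os1, a noncoding gene that lies inside the Kcnmb4 locus, had the largest difference of the channel symbols in Mild IOP. Its scaled FPKM was 17.7, 6.89 and 7.42 in Control, 0.816, 2.18 and 3.62 in Mild IOP, with 6.26, 5.60 and 3.81 in Moderate IOP. All Mild IOP libraries lay below all others, at 2.16 to 9.09 derived fragments a library, and the difference from Control missed the threshold (log2 difference -1.85 ± 0.40 SE, FDR 0.12, limma). It passed without Mild IOP replicate 3 (log2 difference -2.16, FDR 0.063, limma). The library kit did not mark strand, so reads of Kcnmb4os1 and Kcnmb4 cannot be told apart. Kcnu1, which encodes the Slo3 channel known from sperm, measured 7.20, 1.45 and 3.86 in Control, 1.94, 1.51 and 1.60 in Mild IOP, with 0.853, 2.10 and 2.14 in Moderate IOP. One Control library was high, the groups overlapped, and neither difference passed the test (log2 difference -0.78 ± 0.40, FDR 0.56 in Mild IOP, and -0.81 ± 0.40, FDR 0.37 in Moderate IOP, limma). These differences were -0.37 and -0.40 without Control replicate 1, and -1.24 and -1.27 without Control replicate 2. The study, which tested with Cuffdiff, lists Kcnu1 as downregulated in both IOP groups.

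The same question was asked of Moderate IOP against Control. A single channel gene, Kcnab1, was called lower (0.889% of all tested genes) and 0 were called higher (0.951% of all tested genes). At an unadjusted p below 0.05 in limma, 10 channel genes were lower (7.26% of all genes) and 3 were higher (8.03% of all genes). Without overlap between libraries, 15 of 62 channel genes lay below Control, or 24.2%, beside 9.48% of all genes, and 5 lay above, beside 9.95%. The median log2 difference of the channel genes was -0.20, with 39 of 62 below 0, whereas that of all tested genes was 0.00. The channel gene median was -0.12 without Moderate IOP replicate 1 and -0.036 over 92 genes without the filter. Among genes with a mean of at least 5 scaled FPKM the medians were -0.24 for 39 channel genes and 0.00 for all genes.

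Kcnab1 (chr3:65109368-65378225, mm10) encodes Kv-beta 1, which makes Kv1 channels inactivate fast. Its scaled FPKM was 85.2, 83.8 and 113 in Control, 92.7, 119 and 102 in Mild IOP, with 46.1, 58.3 and 65.5 in Moderate IOP. The Moderate IOP libraries lay below all 6 others, and the mean fell from 93.9 ± 16.3 to 56.6 ± 9.84 (SD, n = 3; log2 difference -0.72 ± 0.17 SE, FDR 0.088, limma). The call held without Mild IOP replicate 2 and without Moderate IOP replicate 3. It was lost without any 1 of the other 7 libraries (Control replicates 1 to 3, Mild IOP replicates 1 and 3, Moderate IOP replicates 1 and 2), with FDR of up to 0.183 (limma) and log2 differences from -0.80 to -0.58. At an unchanged log2 difference, it was also lost without the filter (FDR 0.138) and with only the compared groups in the fit (FDR 0.152, limma). The other Kv-beta genes did not pass the test, and their difference from Kcnab1 was not tested. Kcnab3 averaged 58.1 and 52.1 scaled FPKM in Control and Moderate IOP (log2 difference -0.14 ± 0.16, FDR 0.72, limma) and Kcnab2 46.9 and 40.0 (log2 difference -0.22 ± 0.15, FDR 0.52, limma). Without Control replicate 1 these differences were -0.014 and -0.093, and without Control replicate 3 they were -0.29 and -0.32. Among the Kv1 pores that they join, 3 of 6 tested genes had positive and 3 negative differences, and none passed the test.

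Several abundant genes missed the threshold in Moderate IOP while their libraries stood apart from Control. Kcnip3, which encodes KChIP3, also known as the calcium-dependent transcriptional repressor DREAM, measured 135, 123 and 104 scaled FPKM in Control, 109.9, 105 and 93.9 in Mild IOP, with 70.5, 86.0 and 90.4 in Moderate IOP. All Moderate IOP libraries were below all others (log2 difference -0.55 ± 0.14 SE against Control, FDR 0.11, limma). Kcnj9, which encodes the G-protein-gated channel subunit GIRK3, measured 61.2, 67.0 and 68.2 in Control and 53.5, 43.9 and 45.5 in Moderate IOP (log2 difference -0.46 ± 0.16, FDR 0.21, limma). Kcnd3, the Kv4.3 pore that KChIPs bind, measured 12.2, 28.7 and 15.2 in Control, 15.6, 18.7 and 19.4 in Mild IOP, with 8.12, 10.8 and 11.5 in Moderate IOP. One Control library was high, and the difference of -0.75 ± 0.27 from Control did not pass (FDR 0.23, limma). It was -0.41 without that library, Control replicate 2, and -0.99 without Control replicate 1. Of the genes that were higher, Kcnk12, which encodes the silent K2P subunit THIK-2, measured 1.85, 2.06 and 1.60 in Control and 5.20, 4.11 and 2.58 in Moderate IOP, without overlap (log2 difference 0.77 ± 0.28, FDR 0.22, limma). Kcnk1 (TWIK-1) was also without overlap, at 24.4 to 26.2 in Control and 27.7 to 31.4 in Moderate IOP (log2 difference 0.20 ± 0.15, FDR 0.57, limma).

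The direct comparison of Moderate IOP with Mild IOP shares its libraries with the comparisons above and is no separate experiment. It called 5 channel genes lower, or 8.06% of those tested, beside 3.12% of all tested genes, and 0 channel genes higher, beside 7.03% of all tested genes. Without scaling the split over all genes was 5.07% lower and 5.59% higher, with 8 channel genes called lower and 0 higher. With upper-quartile scaling it was 5.28% and 5.42%, with 7 channel genes called lower and 0 higher. At an unadjusted p below 0.05 in limma, 13 channel genes were lower (8.86% of all genes) and 3 higher (12.9% of all genes). The Moderate IOP libraries lay below all Mild IOP libraries for 19 of 62 channel genes, or 30.6%, beside 13.0% of all genes, and above them for 4, beside 14.5%. Without Mild IOP replicate 2, 1 channel gene was called lower, beside 0.698% of all genes, and 0 higher, beside 3.27%, and 19 lay below Mild IOP without overlap, beside 16.0%, and 7 above it, beside 17.2%. The median log2 difference was -0.25, with 41 of 62 below 0, beside -0.02 for all tested genes. The called genes described singly are Kcnab1, Kcnc2, Kcns2 and Hcn4. Of these 4, 3 had sequence in the RefSeq promoter table (GRCm38.p6), and for each the 250 bases before the start site nearest to the start of the deposited locus are shown, all on the plus strand and free of annotated exons of the gene in GENCODE M21. They are shown because these genes were called lower in Moderate IOP against Mild IOP. Whether the genes change together was not tested. Capitals mark matches to 4 motifs searched on both strands, the GC box GGGCGG, the TATA box TATAAA, the cAMP response element TGACGTCA and the E-box CACGTG.
Kcnab1, chr3:65108764-65109013: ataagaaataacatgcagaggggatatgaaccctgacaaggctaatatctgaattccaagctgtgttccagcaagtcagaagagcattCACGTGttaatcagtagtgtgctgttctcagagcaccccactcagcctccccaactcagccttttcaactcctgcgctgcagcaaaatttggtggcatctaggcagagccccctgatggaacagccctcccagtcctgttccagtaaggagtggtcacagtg
Kcnc2, chr10:112270871-112271120: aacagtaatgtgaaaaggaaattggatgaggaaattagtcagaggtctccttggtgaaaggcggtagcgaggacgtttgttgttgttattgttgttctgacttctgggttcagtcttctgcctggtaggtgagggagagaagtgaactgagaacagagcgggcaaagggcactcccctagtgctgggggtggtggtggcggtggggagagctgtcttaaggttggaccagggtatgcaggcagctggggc
Hcn4, chr9:58822699-58822948: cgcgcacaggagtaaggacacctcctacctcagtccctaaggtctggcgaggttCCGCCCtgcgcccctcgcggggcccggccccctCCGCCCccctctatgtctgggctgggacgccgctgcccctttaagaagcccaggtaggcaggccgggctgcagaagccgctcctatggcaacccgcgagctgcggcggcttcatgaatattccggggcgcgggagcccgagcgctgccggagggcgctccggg
The Hcn4 window held 2 GC boxes and was 71.2% G or C, the Kcnab1 window held 1 E-box, and the Kcnc2 window held none of the 4 motifs. GC boxes were found in 33.0% of all 32536 distinct windows of the table and in 44.9% of the 98 windows of channel genes. The E-box was found in 6.0% and 6.1%, the TATA box in 12.3% and 3.1%, and the cAMP response element in 1.6% and 0.0%. A match describes letters and not a bound site.

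Kcnab1 had the lowest FDR of the channel genes in this comparison. Its mean of 56.6 ± 9.84 scaled FPKM in Moderate IOP was 0.541 times the Mild IOP mean of 104.6 ± 13.5 (SD, n = 3; log2 difference -0.88 ± 0.17 SE, FDR 0.016, limma). It was called in all 9 fits that left out 1 library. Kcnc2 (chr10:112271123-112466304), which encodes the Kv3.2 pore of fast-spiking neurons, was next. Its scaled FPKM was 17.3, 18.6 and 18.0 in Control, 18.0, 26.8 and 19.9 in Mild IOP, with 13.9, 9.48 and 10.9 in Moderate IOP, and the Moderate IOP libraries lay below all 6 others. The log2 difference from Mild IOP was -0.86 ± 0.19 (FDR 0.028, limma) and that from Control -0.63 ± 0.19 (FDR 0.17, limma). Without Mild IOP replicate 2, the highest library, the call against Mild IOP was lost (log2 difference -0.70, FDR 0.121, limma). None of the other Kv3 pores passed the test. Kcnc1 averaged 40.7 and 43.7 scaled FPKM in Mild IOP and Moderate IOP (log2 difference 0.10 ± 0.16, FDR 0.78, limma). Its difference ranged from -0.017 to 0.213 over the alternatives run, so its direction was not stable. Whether the Kv3 genes differ from each other was not tested.

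Kcns2 (chr15:34837355-34843407) encodes the silent subunit Kv9.2, which forms no channel alone and modifies Kv2 pores. Its scaled FPKM was 4.72, 3.86 and 4.74 in Control, 7.76, 7.03 and 6.39 in Mild IOP, with 2.79, 5.30 and 3.62 in Moderate IOP. The Mild IOP libraries lay above all 6 others, while Moderate IOP and Control overlapped. The difference of Moderate IOP from Mild IOP was -0.75 ± 0.24 (FDR 0.092, limma), and that of Mild IOP from Control was 0.57 ± 0.24 (FDR 0.42, limma). The call held in 1 of the 9 fits that left out 1 library, the one without Moderate IOP replicate 2. In the others the FDR was up to 0.25 (limma). The call was also lost without the filter (FDR 0.13), with only the compared groups in the fit (FDR 0.14) and with a replicate block (FDR 0.14, limma).

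Hcn4 (chr9:58823512-58860955), the slow and cAMP-sensitive pore known from the sinoatrial node, measured 1.63, 0.894 and 1.58 in Control, 1.47, 1.58 and 2.08 in Mild IOP, with 0.210, 0.707 and 0.571 in Moderate IOP. All Moderate IOP libraries lay below the 6 others, at 4.0 to 23.7 derived fragments a library, so the values are imprecise (log2 difference -0.86 ± 0.28 against Mild IOP, FDR 0.096, and -0.66 ± 0.28 against Control, FDR 0.29, limma). Leaving out 1 library ended the Hcn4 call against Mild IOP in 8 of 9 fits, with FDR of up to 0.23 (limma). The exception was the fit without Control replicate 3. Fitting only the compared groups (FDR 0.11) or adding a replicate block (FDR 0.14, limma) also ended the call. The log2 differences stayed at or below -0.72 in these fits. With a pseudocount of 0.1 the difference was -1.70 (FDR 0.0985, limma). Hcn2 averaged 9.29, 10.2 and 9.43 scaled FPKM in Control, Mild IOP and Moderate IOP (log2 difference -0.14, FDR 0.80 for Moderate IOP against Mild IOP, limma), and Hcn3 averaged 8.72, 10.4 and 7.10 (log2 difference -0.51, FDR 0.29, limma), and neither passed the test. The Hcn2 difference ranged from -0.326 to 0.111 over the alternatives run.

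**Figure D3:**
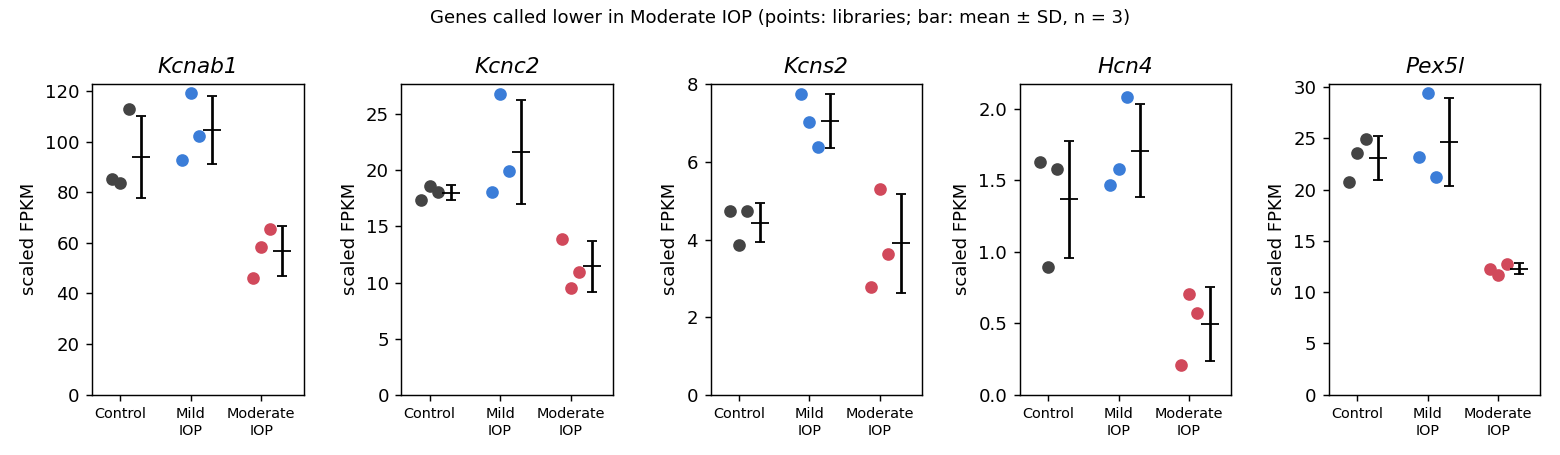
Scaled FPKM of 4 channel genes called lower in Moderate IOP against Mild IOP and of Pex5l, an HCN partner gene, with 1 point per library and the mean ± SD (n = 3) beside it. For every gene but Kcns2 the 3 Moderate IOP points lie below all 6 others, and for Kcns2 the Mild IOP points, at 6.39 to 7.76, lie above all others.

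Partner genes of these channels outside the Kcn and Hcn symbols were followed as a list of 16, of which 13 were tested. None was called in Mild IOP against Control, where 1 had an unadjusted p below 0.05, and that gene was higher (3.15% of all genes were higher at this p). Against Control, 1 was called lower in Moderate IOP (0.889% of all genes) and 0 higher (0.951%), and in Moderate IOP against Mild IOP 2 were called lower (3.12%) and 0 higher (7.03%, limma). Pex5l (chr3:32949634-33143191) encodes TRIP8b, which binds HCN pores and controls their surface traffic. Its scaled FPKM was 20.7, 23.5 and 24.9 in Control, 23.1, 29.4 and 21.2 in Mild IOP, with 12.3, 11.7 and 12.8 in Moderate IOP. The Control mean of 23.1 ± 2.13 compared with 12.3 ± 0.533 in Moderate IOP, without overlap (SD, n = 3; log2 difference -0.86 ± 0.16 SE, FDR 0.041, limma), and the difference from Mild IOP was -0.94 ± 0.16 (FDR 0.011, limma). The call against Mild IOP held in all 9 fits that left out 1 library. The call against Control was lost without Control replicate 1, Control replicate 2 or Moderate IOP replicate 2, with FDR of up to 0.12 (limma). Dpp6, an auxiliary subunit of Kv4 channels and the most abundant partner, measured 61.3, 63.1 and 57.6 in Control, 72.7, 87.4 and 80.8 in Mild IOP, with 59.0, 57.5 and 59.6 in Moderate IOP. The Mild IOP libraries lay above all 6 others, and Dpp6 was called lower in Moderate IOP against Mild IOP (log2 difference -0.44 ± 0.12, FDR 0.051, limma), a call lost without Mild IOP replicate 2 (FDR 0.183) or Moderate IOP replicate 1 or 2 (FDR 0.105 and 0.122, limma). Amigo1, an auxiliary subunit of Kv2 channels, measured 19.8 to 24.98 in Control and 30.3, 14.2 and 11.2 in Moderate IOP, with overlap (log2 difference -0.35 ± 0.29, FDR 0.60, limma).

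By family, differences in Moderate IOP were not in 1 direction throughout. Of the 7 Kv4 and KChIP genes, 6 lay lower than in Control, with a median log2 difference of -0.45, and of the 7 tested Kir genes 6 lay lower, with a median of -0.42. Among the 6 tested K2P genes, 5 lay higher than in Control, with a median of 0.15, and among the 6 tested Eag, Erg and Elk genes 4 lay higher, with a median of 0.32. The summed FPKM of that family was 56.9 ± 5.14 in Control and 50.4 ± 0.609 in Moderate IOP (SD, n = 3). Its most abundant genes lay lower, Kcnh2 with means of 35.9 in Control and 30.7 in Moderate IOP and Kcnh5 with means of 15.6 and 10.6 scaled FPKM. All 6 tested genes of the family lay higher in Mild IOP than in Control, with a median of 0.24. None of the K2P, Kir, Kv4 and KChIP, or Eag, Erg and Elk genes passed the test in any of the 3 comparisons as fitted here. Under other settings some did, among them Kcnd3, which was called lower in Moderate IOP against Mild IOP with a replicate block, without scaling, with only the compared groups in the fit and without Control replicate 2 (limma).

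**Figure D4:**
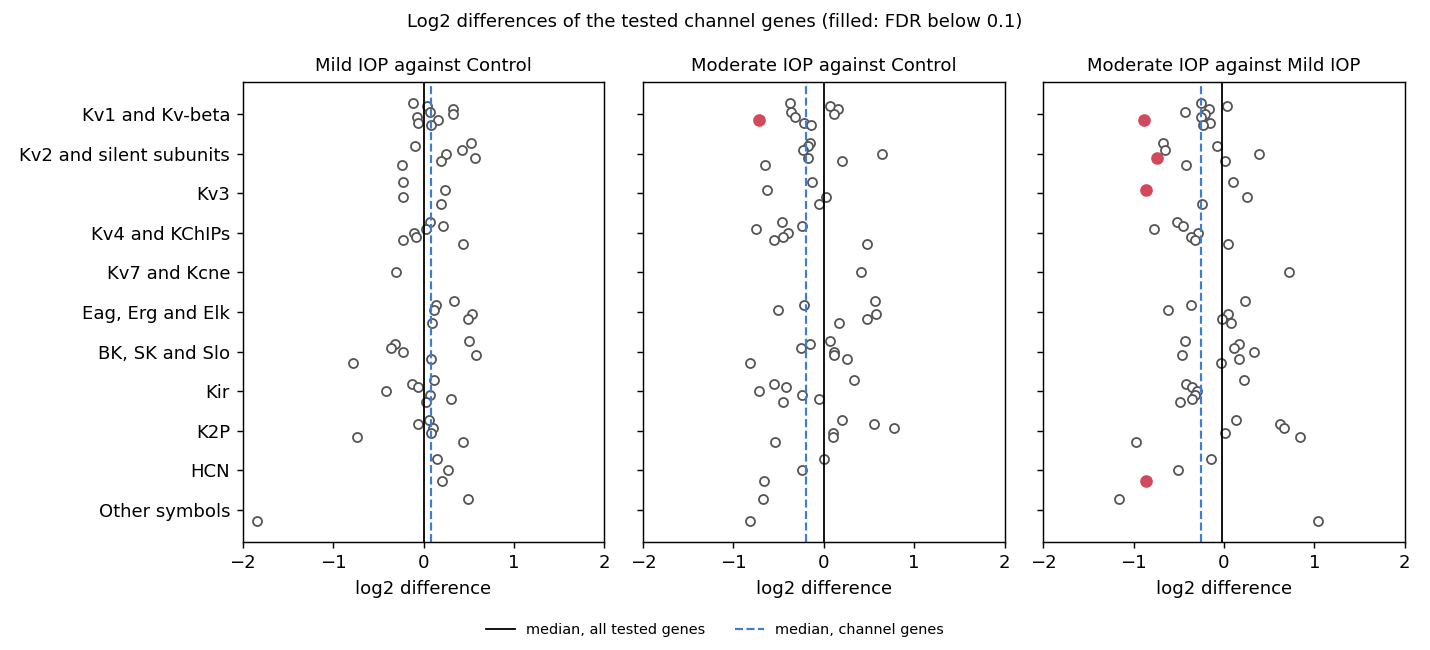
Log2 differences of 59 of the 62 tested channel genes in the 3 comparisons, 1 point per gene, grouped by family, with filled points at an FDR below 0.1 in limma. The dashed line is the median of all 62 (0.08, -0.20 and -0.25) and the solid line that of all 13043 tested genes (0.01, 0.00 and -0.02).

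Kcnd3os, a noncoding gene that starts before Kcnd3 and overlaps the start of its locus, measured 0, 2.31 and 0.219 scaled FPKM in Control and 1.26, 2.07 and 0.619 in Mild IOP, and was listed at 0 in all Moderate IOP libraries. It rested on at most 18.1 derived fragments in any library, and its difference between Moderate IOP and Mild IOP did not pass the test (FDR 0.15, limma), although it did with only the compared groups in the fit (FDR 0.077) and without Control replicate 2 (FDR 0.073). As the library kit did not mark strand, reads in the stretch that Kcnd3os shares with Kcnd3 cannot be told apart.

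Cell class markers moved beside these channel differences. In Moderate IOP against Mild IOP, 6 of 8 RGC markers were called higher (7.03% of all genes) and 0 lower, and 2 of the 4 tested amacrine markers, Gad1 and Slc6a9, were called lower (3.12% of all genes) and 0 higher (limma). The other amacrine markers tested had positive differences that did not pass (0.29 for Slc32a1 and 0.13 for Tfap2b). Without Mild IOP replicate 2, 4 RGC markers were called higher (3.27% of all genes), and Gad1 and Slc6a9 were still called lower (0.698% of all genes). Against Control, 2 RGC markers were called higher (0.951% of all genes) and 1 amacrine marker lower (0.889% of all genes). The scaled FPKM of Slc6a9 was 118, 112 and 101 in Control, 149, 148 and 142 in Mild IOP, with 46.5, 38.9 and 32.6 in Moderate IOP. The part of cell makeup in the channel differences was not tested. Gene length was compared as well. The tested channel genes had a median locus of 37.3 kb, beside 21.4 kb for all tested genes, and 29.0% of them exceeded 100 kb, beside 13.6%. In Moderate IOP against Mild IOP, all genes with a locus over 100 kb had a median log2 difference of -0.14 and the 18 channel genes among them -0.40. For loci up to 100 kb the medians were 0.01 for all genes and -0.22 for 44 channel genes. Against Control, the Moderate IOP medians of the channel genes were -0.15 for loci over 100 kb and -0.22 for shorter ones, beside -0.05 and 0.01 for all genes, so among channel genes the shorter loci had the lower median there. The part of gene length in the channel differences was not tested.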

How the data were processed

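RGC libraries of Control, Mild IOP and Moderate IOP (3 technical replicates of 1 pool each) were compared, with groups and replicate numbers from the labels. The authors aligned paired reads to mm10 and estimated expression with Cufflinks; the submitters' processing notes also name FastQC, Trimmomatic, TopHat2 and Cuffdiff. What was deposited is the FPKM of each gene with its confidence bounds, which the authors made library by library. Read totals were not used here. Fragments behind a value were derived as (2 × FPKM / (upper bound − FPKM)) squared, which covers counting error only and runs low for abundant genes. Depth was derived from genes with a GENCODE M21 transcript of 2000 nt or more and with 100 fragments or more.

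FPKM were summed per symbol, scaled by median-of-ratios factors, and transformed as log2 of scaled FPKM plus 1, a scale that understates changes of low genes. Genes with a mean of at least 0.5 scaled FPKM over the 9 libraries and no failed estimate were fitted together with limma 3.58.1 in R 4.3.3 (all groups, variance trend), with Benjamini-Hochberg adjustment over all 13043 genes and a threshold of FDR below 0.1. Python 3.11.15 was used for tables and figures, with pandas 2.3.3, numpy 2.4.6 and matplotlib 3.10.9. The fit was tested on simulated data.

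The gene rule, families, partner genes and markers were chosen with earlier results of these data known. Kcnd3os and Kcnmb4os1 were placed outside the families after the files were seen. Channel genes were named if they passed the FDR, were among the 10 most abundant, led a family, or were among the 5 largest differences of a comparison without overlap between groups; Kcnu1 was named as well, and partner genes if called or among the 3 most abundant. A few genes meeting these criteria are not reported here, but counts and sums include them. Other channel genes named were chosen after their values were seen. Alternatives covered scaling, pseudocount, filter, failed estimates, the libraries in the fit, a replicate block and each library left out.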

Additional observations from a re-analysis of the deposited data

Results flagged for a closer look

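For the 4 channel genes below the differences of Mild IOP and Moderate IOP from Control differed from each other in the direct test between both groups (limma, FDR below 0.1). This is the comparison of Moderate IOP with Mild IOP described above and not a further test. The log2 difference of Moderate IOP from Mild IOP was -0.88 for Kcnab1, -0.86 for Kcnc2, -0.75 for Kcns2 and -0.86 for Hcn4. With a pseudocount of 0.1 these differences were -0.89, -0.91, -0.88 and -1.70 in that order. In all 4 genes the mean lay above Control in Mild IOP and below it in Moderate IOP. The genes were selected by the difference between these groups, which favours such an order, so the order is no separate result. None of the Mild IOP differences from Control passed the test (FDR 0.42 to 0.87, limma), and all but that of Kcns2 overlapped Control. Of the Moderate IOP differences from Control, only that of Kcnab1 passed (FDR 0.088, limma). Of the 9 fits that left out 1 library, the call against Mild IOP held in 9 for Kcnab1 and 8 for Kcnc2. It held in 1 for Kcns2 and in 1 for Hcn4.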

How the results depend on the processing

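The number of called channel genes moved with the processing, whereas the sign of every median, and of every recomputed single-gene difference but 2, stayed the same in all alternatives run. Both exceptions had not passed the test in Moderate IOP against Mild IOP. Kcnc1, at 0.10, was -0.001 with upper-quartile scaling and from -0.017 (without Mild IOP replicate 3) to 0.213 when 1 library was left out, and also below 0, at -0.01, without Moderate IOP replicate 3. Hcn2, at -0.14, ranged from -0.326 to 0.111, the latter without Moderate IOP replicate 2. In Mild IOP against Control the count was 0, but 1 without the filter (Kcnj8), and leaving out 1 library gave 0 to 1, while the share of all genes called was 0.399%, 0.141% and 0.107% to 1.32%. In Moderate IOP against Control the count was 1, with 3 without scaling, 2 with upper-quartile scaling, 0 without the filter, 2 with a mean filter of 2 and 0 with only the compared groups in the fit, and leaving out 1 library gave 0 to 2. The share of all genes called moved too, from 1.84% to 1.95%, 1.84%, 1.1%, 2.47% and 1.03% in that order, and to 0.468% to 2.08% when 1 library was left out. In Moderate IOP against Mild IOP the count was 5, all lower, with 8 without scaling, 7 with upper-quartile scaling and 6 without the filter, and leaving out 1 library gave 1 to 5. The share of all genes called there was 10.2%, with 10.7%, 10.7% and 5.94% in that order and 3.97% to 10.4% when 1 library was left out. With only the compared groups in the fit the count was again 5 (7.92% of all genes), but Hcn4 (FDR 0.11) and Kcns2 (FDR 0.14, limma) were lost and Kcnd3 and Kcnd3os gained. A single gene was called higher without the filter (Kcnrg), without Mild IOP replicate 3 (Kcnmb4os1) and without Moderate IOP replicate 3 (Kcnk10), and 1 call, Kcnab1, was left without Mild IOP replicate 2. The median log2 difference of the channel genes in Mild IOP against Control rose to 0.15 with upper-quartile scaling and ranged from 0.009 to 0.094 when 1 library was left out. In Moderate IOP against Control it was -0.036 over 92 genes without the filter and -0.27 to -0.12 when 1 library was left out. In Moderate IOP against Mild IOP it was -0.34 without scaling, -0.35 with upper-quartile scaling, -0.12 without the filter and -0.28 to -0.17 when 1 library was left out. The cause of these shifts was not tested.

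Replicate numbers showed no pairing of libraries between groups. Correlations of deviations from the group mean were -0.01 to 0.04 for same-numbered libraries and -0.05 to 0.04 for others. Such values cannot exclude a batch shared by replicate number. With a replicate block the counts were 0, 1 and 4, beside 0.192%, 1.04% and 8.59% of all genes, and the calls of Hcn4 and Kcns2 were lost (FDR 0.14 for both, limma) while Kcnd3 was gained in Moderate IOP against Mild IOP. Low genes are limited by depth, as Hcn4 and Kcnmb4os1 rest on few fragments. With 1 pool per group, no difference is tested between animals.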

Other observations

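A few inward-rectifier genes known from non-neuronal cells lay below the filter. Kcnj10, the Kir4.1 pore of Müller glia, measured 0.00180 to 0.275 scaled FPKM over the 9 libraries, and Kcnj13, the Kir7.1 pore of the pigment epithelium, was listed at 0 in 7 of them and measured 0.856 in Moderate IOP replicate 2 and 0.143 in Moderate IOP replicate 3. Kcnj8, the Kir6.1 pore of ATP-sensitive channels in pericytes and smooth muscle, measured 0, 0.0516 and 0 in Control, 0.727, 1.01 and 0.515 in Mild IOP, with 0, 0.0539 and 0 in Moderate IOP, on 6.0 to 14.7 derived fragments a library in Mild IOP and at most 1.0 elsewhere. Its partner subunit gene Abcc9 (SUR2) measured at most 0.0270 in Control, 0.0801 to 0.127 in Mild IOP and at most 0.0217 in Moderate IOP, on fewer than 5 derived fragments in any library. The pericyte markers Rgs5 and Pdgfrb averaged 1.09 and 0 scaled FPKM in Control, 4.99 and 0.155 in Mild IOP, with 3.73 and 0.0422 in Moderate IOP. The other endothelium and pericyte markers did not share this order: Pecam1 averaged 0.398, 0.159 and 0 in the 3 groups, Cd34 0.290, 0.330 and 0.111 and Acta2 0.0723, 0.178 and 0.234, and Cldn5 was listed at 0. Kcnj8, Kcnj10, Kcnj13 and Abcc9 were singled out after their values were seen.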
